A study of Mus musculus with 11 samples.

Results

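Hepatokine and angiopoietin-like transcripts were followed by gene symbol in the liver of OVX mice given FSH or saline. The 9 genes chosen were Angptl4, Angptl6, Angptl8, Fgf21, Gdf15, Fst, Igfbp2, Lepr and Ahsg, out of 36788 gene identifiers in the liver RNA-seq table. All 9 were detected in each of the 11 livers and all 9 passed the filter on low values. The livers came from WT C57BL/6 female mice more than 12 weeks old. Every mouse had been ovariectomized (OVX) and fed a high-fat diet, so the control group shares both. Follicle-stimulating hormone (FSH), a pituitary gonadotropin, was injected daily into 5 of them and saline into 6, and no group with intact ovaries or on normal food was part of this comparison. The comparison asks which liver transcripts differ when FSH is given in the absence of ovaries.

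Hepatokines are proteins that the liver releases into the blood and that act on fat, muscle, brain or the liver itself. ANGPTL4 and ANGPTL8 belong to the angiopoietin-like family and hold back lipoprotein lipase, the enzyme that frees fatty acids from circulating triglycerides. ANGPTL4 is best known as a product of fasting and ANGPTL8 as a product of feeding. FGF21 and GDF15 are hormones of nutrient and cell stress, follistatin binds activins, IGFBP2 carries insulin-like growth factors, AHSG (fetuin-A) binds the insulin receptor, and LEPR is the receptor for leptin, whose soluble form is also released by the liver.

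Between 10801891 and 19909327 reads per liver were counted on genes. Expression is given as CPM, the reads on a gene scaled to 1000000 reads per library. The 8 hepatocyte markers summed to 99655 to 119925 CPM in the FSH group and 93162 to 123099 CPM in the saline group, while the 6 pancreatic acinar markers together stayed at or below 0.0926 CPM, with Cpb1, Pnlip and Prss2 at 0. Of the markers of other liver cells, Kupffer cell markers summed to 93.3 to 257 CPM with FSH and 153 to 303 CPM with saline, stellate cell markers to 193 to 264 and 220 to 298 CPM, and endothelial markers to 120 to 179 and 140 to 166 CPM. Cholangiocyte markers summed to 47.6 to 69.4 and 38.3 to 55.7 CPM, erythroid markers to 464 to 790 and 425 to 1009 CPM, and adipocyte markers to 1.86 to 2.80 and 1.16 to 4.34 CPM, with Lep and Retn at 0. In the test over all genes given below, which called 10.6% of them, 1 of 8 hepatocyte and 1 of 6 endothelial markers were lower with FSH. In the same test 1 of 5 cholangiocyte markers was higher, and no other tested marker passed. Dbp, an output gene of the circadian clock, was at 42.6 to 121 CPM in the FSH livers and 3.40 to 4.95 CPM in the saline livers, and its part in the results was not tested. In whole liver, fewer cells of a type and less RNA per cell cannot be told apart.

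Gdf15 and Angptl4 fell and Lepr rose in the FSH livers. The other 6 transcripts did not pass the test. In limma's test over 12733 genes, 3 of the 9 transcripts had a Benjamini-Hochberg adjusted p under 0.05, against 10.6% of all genes tested. Only Gdf15 of these 9 also changed by more than 2-fold, against 1.83% of all genes. For 0 of the 9 did the groups separate without overlap, against 6.67% of all genes, and 4 of the 9 had an unadjusted p under 0.05, against 25.1% of all genes. Without saline mouse 2, picked after its values were seen, the groups did not overlap for 2 of the 9, Gdf15 and Lepr, against 7.98% of all genes over the same livers. For Gdf15 and Lepr this follows from leaving out the saline liver with the lowest Gdf15 and the highest Lepr. The median log2 fold change was 0.00 over the 9 transcripts and 0.02 over all genes tested. A pseudocount of 0.5 CPM was added before taking log2, so fold changes of weakly expressed genes come out too small.

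**Figure D1:**
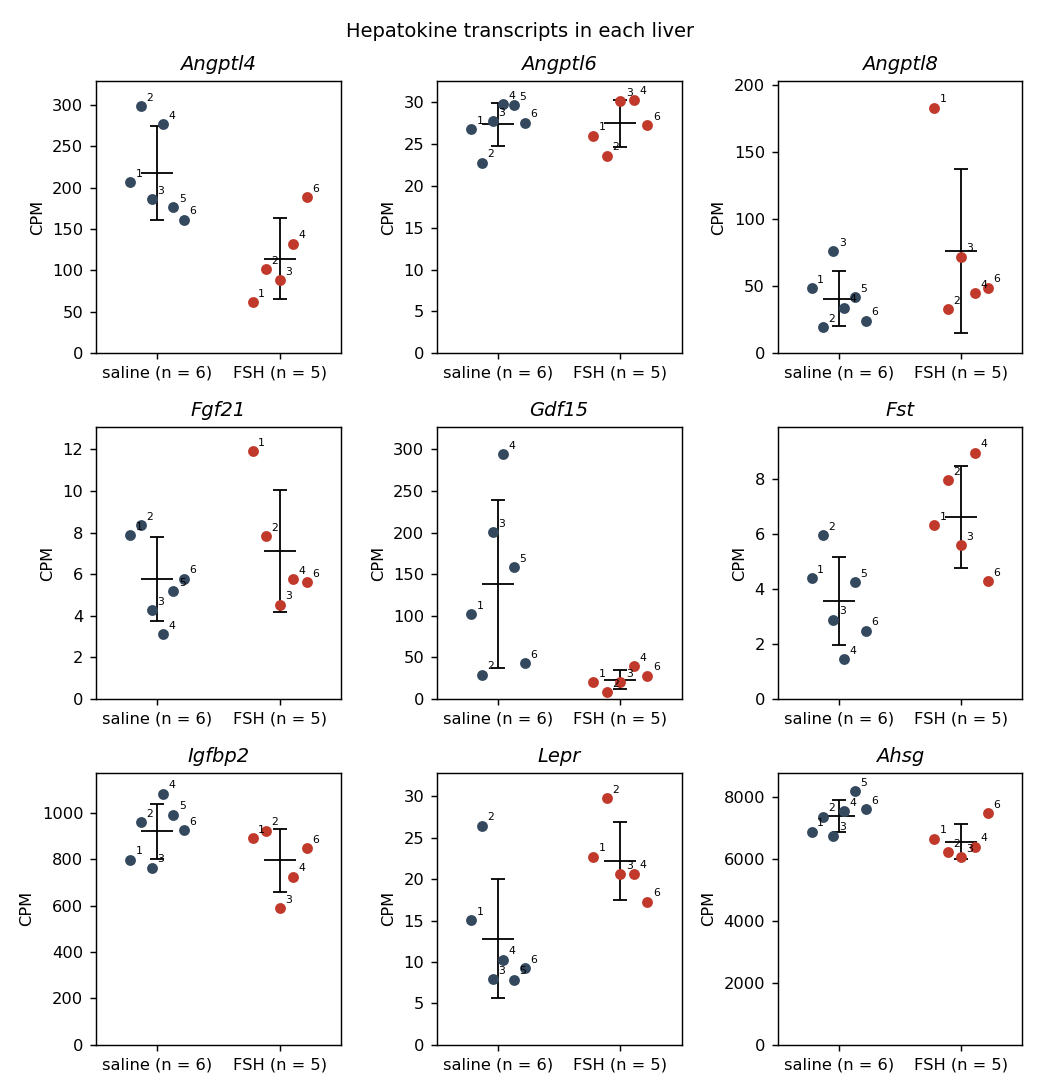
CPM of each of the 9 transcripts (vertical axes, linear and starting at 0) in 6 saline livers and 5 FSH livers. Points are livers with their replicate numbers, and bars give the mean ± SD. Gdf15 and Angptl4 are lower in most FSH livers, Lepr and Fst are higher in most, and no transcript separates the groups fully.

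**Figure D2:**
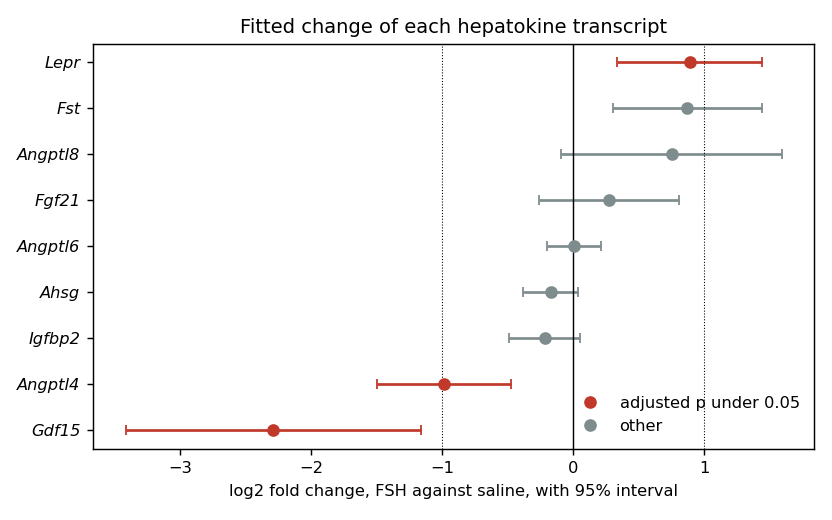
Log2 fold change of FSH against saline for each transcript (horizontal axis) with its 95% confidence interval from limma. Gdf15 lies farthest from 0, at -2.29, and Angptl6 lies at 0.00.

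Gdf15, a stress-induced hormone that acts on a brainstem receptor to reduce food intake, lies on the minus strand at chr8:70629393-70632456 (GRCm38, GENCODE M21 annotation). It was at 20.1, 8.26, 20.5, 39.4 and 28.3 CPM in FSH mice 1, 2, 3, 4 and 6. In the saline mice the lowest value was 29.5, the median 130.3 and the highest 294 CPM. Of the 5 FSH livers, 4 lay below every saline liver, and only FSH mouse 4 lay above the lowest saline value, that of saline mouse 2. Means were 23.3 ± 11.5 CPM (SD, n = 5) for FSH against 138.0 ± 100.7 CPM (SD, n = 6) for saline, a 5.92-fold difference. The log2 fold change was -2.29 (SE 0.53, 95% interval -3.41 to -1.17, limma adjusted p = 0.0122), and a two-sided exact permutation test over 462 regroupings gave p = 0.00866, where the smallest value possible is 0.00433. Saline livers differed from each other 9.98-fold, the widest range of any of the 9 transcripts in either group.

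The promoter windows of Gdf15 and Lepr are shown because these transcripts changed in opposite directions. They are RefSeq sequences of 300 bases on GRCm38.p6, from 250 bases before the start site to 50 after it, written 5′ to 3′ on the strand of the gene. Of the 9 genes, 7 had an entry, and Angptl4 and Fst did not. Capitals mark matches, on either strand, to short motifs searched by their letters. Windows at the annotated start are shown. In the Gdf15 window (chr8:70632407-70632706, minus strand) the match was AGGTCA, a nuclear receptor half-site, at -55, which 16.3% of all 32851 promoter windows hold. In the Lepr window (chr4:101717157-101717456, plus strand) it was the CCAAT box at -195, which 37.4% hold. A match is a match of letters and not a site known to be used.
Gdf15: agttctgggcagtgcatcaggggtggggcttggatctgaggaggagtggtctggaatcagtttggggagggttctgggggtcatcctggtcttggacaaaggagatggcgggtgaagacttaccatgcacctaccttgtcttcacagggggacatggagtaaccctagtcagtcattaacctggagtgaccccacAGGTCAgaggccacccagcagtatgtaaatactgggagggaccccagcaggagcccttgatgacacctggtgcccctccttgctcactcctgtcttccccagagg
Lepr: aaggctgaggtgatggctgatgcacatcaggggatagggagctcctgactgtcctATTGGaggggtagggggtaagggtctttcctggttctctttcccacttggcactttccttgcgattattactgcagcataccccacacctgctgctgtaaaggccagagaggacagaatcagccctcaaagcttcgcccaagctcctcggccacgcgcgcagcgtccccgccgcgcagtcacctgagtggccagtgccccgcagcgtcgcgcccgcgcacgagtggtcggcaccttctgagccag

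Among the angiopoietin-like genes, Angptl4 fell, while Angptl8 and Angptl6 did not pass the test. Angptl4 (chr17:33773750-33781830, minus strand) was at 61.3, 102, 88.0, 132 and 188 CPM in FSH mice 1, 2, 3, 4 and 6, and between 161 and 298 CPM with a median of 196.3 in the saline mice. FSH mice 1 to 4 lay below all saline mice, and only FSH mouse 6 fell inside their range. The group means were 114.4 ± 48.7 CPM (SD, n = 5) and 217.4 ± 56.5 CPM (SD, n = 6). The log2 fold change was -0.99 (SE 0.24, 95% interval -1.50 to -0.48, limma adjusted p = 0.0162). The exact permutation test was two-sided and gave p = 0.0173. With edgeR's quasi-likelihood test on the recovered reads the fold was similar, -0.95, with an adjusted p of 0.0620.

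Angptl8 lies at chr9:21835510-21837347 on the plus strand, within Dock6 on the other strand, but shares no exon bases with it in this annotation. It was at 183, 32.7, 72.0, 44.7 and 48.7 CPM in FSH mice 1, 2, 3, 4 and 6. In the saline group it ran from 19.5 to 76.2 CPM with a median of 38.0. FSH mouse 1 stood apart from every other liver, and the remaining FSH values lay inside the saline range. The log2 fold change was 0.75 (SE 0.39, 95% interval -0.09 to 1.59, limma adjusted p = 0.256), an interval that includes 0. Without FSH mouse 1 it was 0.36 (limma adjusted p = 0.581).

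Angptl6, a hepatic factor linked to energy expenditure, was at 26.0, 23.6, 30.1, 30.3 and 27.3 CPM in the FSH mice and between 22.8 and 29.8 CPM, with a median of 27.6, in the saline mice. The log2 fold change was 0.00 (SE 0.10, 95% interval -0.20 to 0.21, limma adjusted p = 0.988), and its sign turned with the scaling of the libraries. The gene (chr9:20873808-20879727, minus strand) shares 265 of its 1582 exon bases with A230050P20Rik on the other strand, and because use of strand in counting was not stated, reads on that shared stretch cannot be told apart. Within a liver, the log2 ratio of Angptl8 to Angptl4 does not depend on scaling between libraries. It was -0.77 ± 1.45 (SD, n = 5) with FSH and -2.50 ± 0.91 (SD, n = 6) with saline, with ranges of -1.94 to 1.57 and -3.90 to -1.28. The difference of 1.74 had a two-sided exact permutation p of 0.0346, or 0.0692 adjusted over the 2 ratios tested, and so did not pass. The highest ratio, 1.57, was that of FSH mouse 1, and without this mouse the difference was 1.15 (exact permutation p adjusted over the 2 ratios = 0.152).

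Lepr rose, and it was higher than the saline median in all 5 FSH livers. The gene, which encodes the leptin receptor, lies on the plus strand at chr4:101717404-101815352. FSH mice 1, 2, 3, 4 and 6 had 22.7, 29.8, 20.6, 20.7 and 17.3 CPM, and the saline mice had from 7.87 to 26.5 CPM with a median of 9.77. Saline mouse 2, the highest of them, lay inside the FSH range, and of the others only saline mouse 1, at 15.0 CPM, came near it. The means were 22.2 ± 4.67 CPM (SD, n = 5) and 12.8 ± 7.19 CPM (SD, n = 6), and the log2 fold change was 0.89 (SE 0.26, 95% interval 0.34 to 1.44, limma adjusted p = 0.0402). By the two-sided exact permutation test, p was 0.0346. The call was lost in 8 of 11 fits that each left out a liver (limma adjusted p 0.0701 to 0.0957 in those).

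Leprot, which starts upstream of Lepr and whose product limits the amount of leptin receptor at the cell surface, was at 18.2 to 22.7 CPM with FSH and 14.1 to 21.9 CPM with saline (log2 fold change 0.27, limma adjusted p = 0.129). The log2 ratio of Lepr to Leprot was 0.07 ± 0.38 (SD, n = 5) with FSH and -0.55 ± 0.77 (SD, n = 6) with saline, a difference of 0.62 that did not pass (two-sided exact permutation p = 0.143).

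Fst, which encodes the activin-binding protein follistatin, had a limma adjusted p of 0.0505, just over the threshold. It was at 6.33, 7.97, 5.61, 8.98 and 4.29 CPM in FSH mice 1, 2, 3, 4 and 6 and from 1.45 to 5.96 CPM, with a median of 3.57, in the saline mice. All 5 FSH values were above the saline median and 3 were above every saline value. The means were 6.63 ± 1.86 CPM (SD, n = 5) and 3.57 ± 1.62 CPM (SD, n = 6), the log2 fold change was 0.87 (SE 0.27, 95% interval 0.30 to 1.44), and the two-sided exact permutation p was 0.0260. Between 19 and 139 reads per liver stood behind these values, the lowest depth of the 9 transcripts. Fst (chr13:114452290-114458951, minus strand) shares 115 exon bases with the antisense gene Gm47040.

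Fgf21, a hormone of fasting and of cell stress, was at 11.9, 7.82, 4.53, 5.75 and 5.61 CPM in FSH mice 1, 2, 3, 4 and 6, and from 3.12 to 8.36 CPM with a median of 5.48 in the saline mice. FSH mouse 1 was the highest liver for both Fgf21 and Angptl8, and the other 4 FSH values of Fgf21 lay inside the saline range. Its log2 fold change was 0.27 (SE 0.25, 95% interval -0.26 to 0.81, limma adjusted p = 0.557). With single livers left out it ran from 0.08 (without FSH mouse 1) to 0.40 (without FSH mouse 3). Without saline mouse 4 it was 0.13. The promoter windows of Fgf21 (chr7:45615441-45615740, minus strand) and Angptl8 (chr9:21835260-21835559, plus strand) are shown because both hold TGATGCAA, a sequence of the kind bound by C/EBP and ATF factors, at -139 and -130, which 0.895% of all windows hold. The Fgf21 window also held the GC box, spelled GGGCGG, at -225, -121 and -45 (in 35.7% of all windows). Its E-box, spelled CACGTG, was at -50 and overlaps the last GC box (7.15% of windows). A TATA box, spelled TATAAA, lay at -28 (13.6% of windows).
Fgf21: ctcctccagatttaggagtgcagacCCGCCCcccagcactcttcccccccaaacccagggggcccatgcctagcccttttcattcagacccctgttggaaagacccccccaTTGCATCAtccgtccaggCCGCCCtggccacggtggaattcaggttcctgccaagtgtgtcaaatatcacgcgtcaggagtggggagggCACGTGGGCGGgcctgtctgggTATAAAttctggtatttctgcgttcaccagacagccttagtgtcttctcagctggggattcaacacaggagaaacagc
Angptl8: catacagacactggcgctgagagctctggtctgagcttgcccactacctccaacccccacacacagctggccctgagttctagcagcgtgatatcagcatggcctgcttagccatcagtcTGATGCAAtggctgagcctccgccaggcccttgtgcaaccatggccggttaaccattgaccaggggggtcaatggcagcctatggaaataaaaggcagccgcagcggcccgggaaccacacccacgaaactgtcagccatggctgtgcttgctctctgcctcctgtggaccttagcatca

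The highly expressed carriers Igfbp2 and Ahsg did not pass the test. Igfbp2 (chr1:72824503-72852474, plus strand) was at 889, 923, 588, 725 and 847 CPM in FSH mice 1, 2, 3, 4 and 6 and from 762 to 1082 CPM, with a median of 942, in the saline mice (log2 fold change -0.22, SE 0.13, limma adjusted p = 0.308). Without FSH mouse 3 the log2 fold change of Igfbp2 was -0.12 (limma adjusted p = 0.627). Ahsg (chr16:22891277-22899449, plus strand) was at 6650, 6227, 6057, 6396 and 7471 CPM with FSH and from 6752 to 8182 CPM, with a median of 7456, with saline. Of the 5 FSH values of Ahsg, 4 lay below the lowest saline value. The difference was small against the error in the model over all genes (log2 fold change -0.17, SE 0.10, 95% interval -0.38 to 0.04, limma adjusted p = 0.305), while the two-sided exact permutation test, which uses this gene alone, gave p = 0.0303. Ahsg shares 62 exon bases with an antisense gene, Gm30505.

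Per kilobase of exon, the mean levels ran from Ahsg (2986 CPM per kb with FSH, 3364 with saline) and Igfbp2 (430 and 498) down to Lepr (3.15 and 1.82) and Fst (1.45 and 0.779). In between, Angptl8 was at 88.1 and 47.1, Angptl4 at 32.3 and 61.4, Gdf15 at 12.6 and 74.5, Angptl6 at 17.3 and 17.3, and Fgf21 at 7.49 and 6.07 CPM per kb. By these means, Gdf15 and Angptl4 were above Angptl8 with saline and below it with FSH. The Angptl8 mean with FSH was 57.2 CPM per kb without FSH mouse 1, a comparison added after its value was seen, and was still above both.

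**Figure D3:**
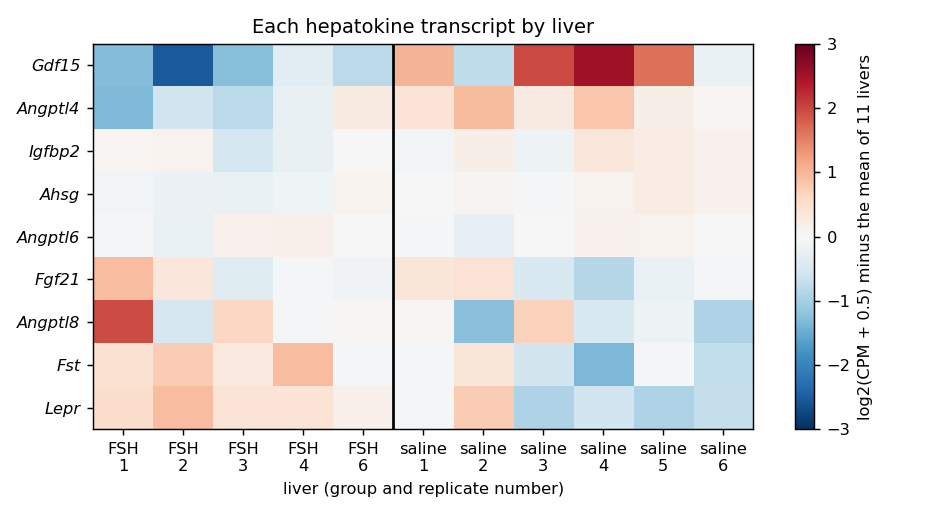
Log2(CPM + 0.5) of each transcript minus its mean over the 11 livers (colour), with livers in columns by group and replicate number. Saline livers 3, 4 and 5 carry the highest Gdf15 values, and saline liver 2 sits with the FSH livers for Gdf15 and Lepr.

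Within groups, with each group's mean removed, the transcripts were compared pair by pair across the 11 livers, where both values of a pair come from the same library and share its depth. Of 36 pairs, 1 had a Pearson r above 0.7 (Angptl6 with Gdf15, 0.787) and 2 were below -0.7 (Angptl6 with Lepr, -0.776, and Angptl6 with Fgf21, -0.723), while Gdf15 with Lepr gave -0.683. Among 8589 genes, the transcripts most like Angptl4 were Per1 (0.954), a clock gene, Pck1 (0.938), the gluconeogenic enzyme, and Slc15a4 (0.930). For Gdf15 they were Hsd17b10 (0.942), Usf1 (0.934) and Jund (0.928), and for Lepr they were Zfp750 (0.915), Pigx (0.898) and Actr6 (0.893). These values are descriptions over 11 livers.

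Genes around the hepatokines were followed as lists, whose counts stand beside the 6.19% of all tested genes that rose and the 4.41% that fell. Of the integrated stress response and GDF15 control list, 5 of 11 tested genes fell and 0 rose. They were Trib3 (log2 fold change -1.19, limma adjusted p = 0.00243), a pseudokinase induced by stress, Chac1 (-1.14, adjusted p = 0.00543), which degrades glutathione, and Ddit3, Atf5 and Ppp1r15a (-0.57, -0.44 and -0.67). Trib3 was at 2.37 to 3.02 CPM with FSH and 4.20 to 12.7 CPM with saline, without overlap. Atf4, the central factor of this response, did not pass (log2 fold change 0.12, limma adjusted p = 0.612). Gfral and Ret, the receptor genes for GDF15, had 0 CPM in every liver.

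In the lipoprotein lipase list, 1 of 14 tested genes changed, Lipc, hepatic lipase (log2 fold change -0.29, limma adjusted p = 0.0326). None of the 4 tested genes of the other angiopoietin family members passed, the smallest limma adjusted p being 0.142 for Angpt2. Among the 11 regulators and receptors of FGF21, only Fgfr4, the main FGF receptor of hepatocytes, changed (-0.49, limma adjusted p = 0.0193). Among 15 activin and follistatin genes tested, Tgfbr3, a co-receptor, rose (0.57, limma adjusted p = 0.00568) and Inhbc, an activin subunit of hepatocytes, fell (-0.72, adjusted p = 0.00661).

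Of the 11 tested leptin receptor signaling genes, 2 fell (4.41% of all genes did), Irs2 (log2 fold change -1.45, limma adjusted p = 0.0168) and Leprotl1 (-0.32, adjusted p = 0.0272). The PPARalpha targets, which like Angptl4 respond to fatty acids, had 3 of 16 tested genes lower (4.41% of all genes) and 0 higher. Those lower included Cyp4a10, a fatty acid hydroxylase (log2 fold change -0.82, limma adjusted p = 0.0301), and Acadm, an enzyme of fatty acid oxidation (-0.28, adjusted p = 0.0369). Of the targets that did not pass, Cyp4a14 (-0.77, limma adjusted p = 0.0542) and Cpt1a (0.50, adjusted p = 0.0579) came closest to the threshold, and the median log2 fold change of the list was -0.16. In the list of insulin and SREBP1c targets, which like Angptl8 are induced by feeding, 9 of 12 rose and 0 fell. The median log2 fold change of that list was 1.60, with Elovl6 at 2.72 (limma adjusted p = 0.000770), Fasn at 2.20 (0.00139), Thrsp at 1.89 (0.00108) and Me1 at 1.62 (0.000755).

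**Figure D4:**
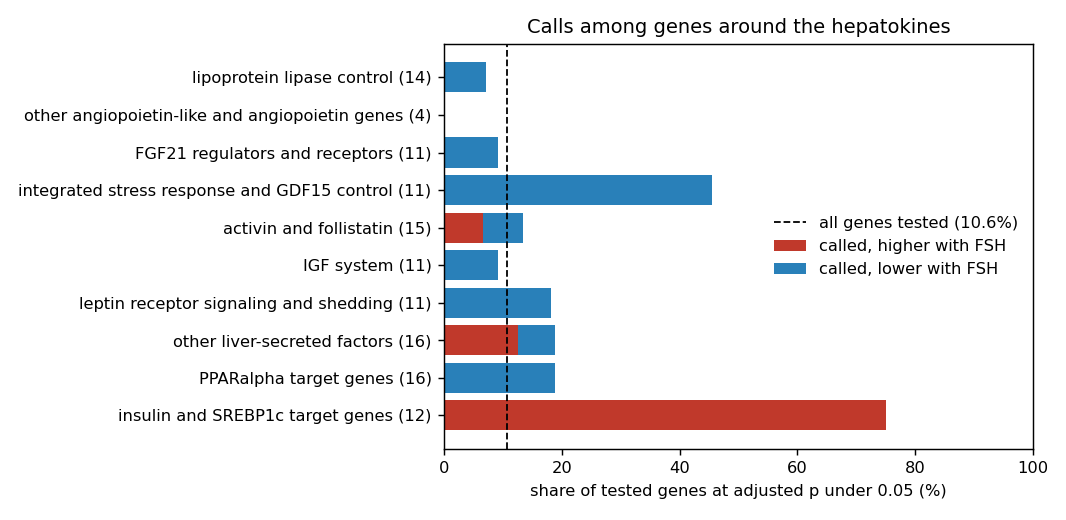
Share of tested genes with a limma adjusted p under 0.05 (horizontal axis, percent) in each list of genes around the hepatokines, with the number tested in brackets. Red is higher with FSH, blue is lower, and the dashed line is the 10.6% of all genes tested. The insulin and SREBP1c list and the integrated stress response list pass the line by the most.

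**Figure D5:**
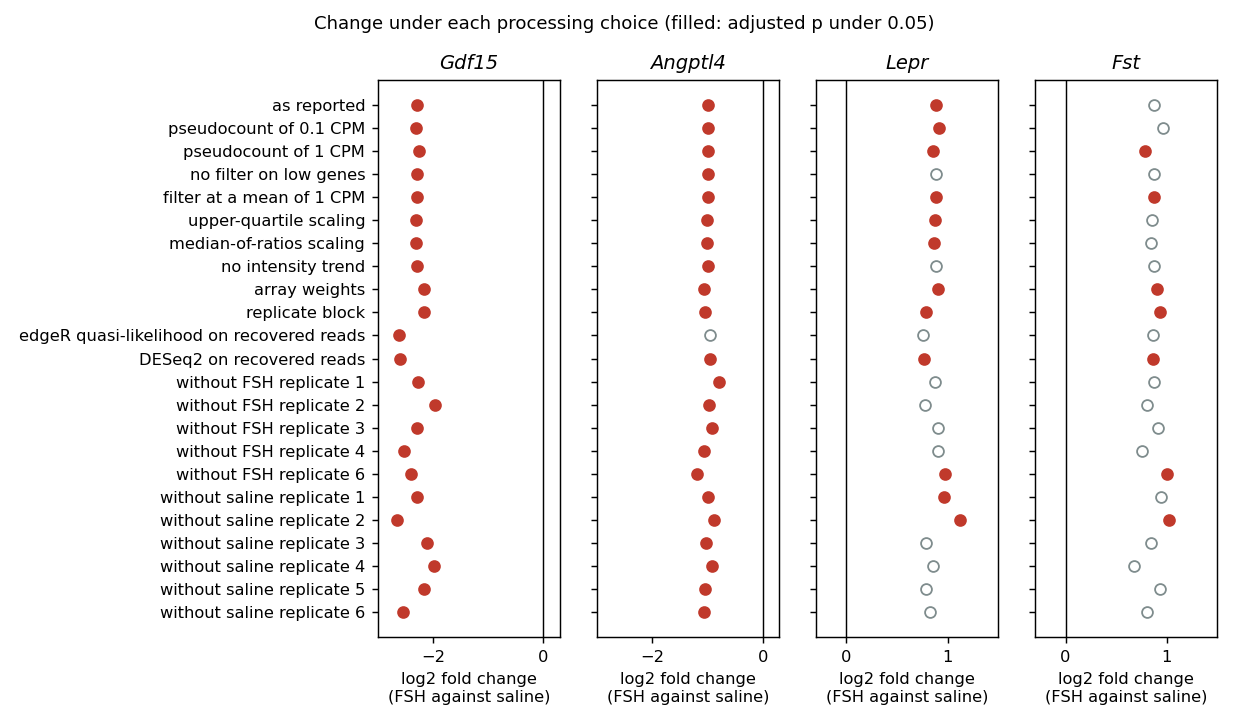
Log2 fold change of Gdf15, Angptl4, Lepr and Fst (horizontal axes) under each processing choice (rows). Filled points have an adjusted p under 0.05. Gdf15 is filled in every row, and Angptl4 in all but edgeR's test.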

How the data were processed

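Liver mRNA of 5 FSH-treated and 6 saline-treated mice was sequenced, with groups taken from the labels. The authors deposited CPM values (reads per gene scaled to 1000000 per library) for 36788 gene identifiers, without a filter or scaling between libraries. The submitters' processing notes name FastQC 0.11.2, Trim Galore 0.3.3, cutadapt, STAR, RSEM and the build mm10; the use of strand is not given in the sources used here. The labels have the tissue digested with papain, whereas the methods name a column kit. Whether this affected stress transcripts was not tested. The CPM values were whole multiples of 1 read for 100% of values (tolerance 0.1 read), which gave the totals and the reads used by edgeR and DESeq2. A gene at 0 could have had up to 3 reads, or 0.151 to 0.278 CPM, counting error only.

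Log2(CPM + 0.5) was compared, for genes averaging 0.5 CPM or more over all livers, with limma 3.58.1 (R 4.3.3, eBayes with an intensity trend, Benjamini-Hochberg over 12733 genes), after the functions were tested on simulated data. Symbols came from GENCODE M21, which named 35555 identifiers. Replicates are numbered livers, and the p-values weigh the difference between the group means against the spread between livers. The lowest mean chi-square per gene between libraries of a group was 11.4, so none was a repeat of another.

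The genes and lists were chosen with earlier results of these data known. All 9 hepatokine genes are named, with list genes past both thresholds (up to 4) or otherwise the 1 or 2 of smallest p, and the 3 genes most like each called transcript (mean of at least 5 CPM). Gene names beyond that rule (Dbp, Atf4, Cpt1a, Cyp4a14, Igf1, marker genes at 0, Gfral, Ret, Leprot, overlapping genes and further called list genes) were added after values were seen. Alternatives were a replicate block, array weights, no trend, other pseudocounts and filters, 2 scalings, each liver left out, edgeR 4.0.16 and DESeq2 1.42.0. P-values adjusted over the 9 genes alone, set out in the plan, are not given, and some other results are not reported here.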

Additional observations from a re-analysis of the deposited data

Results flagged for a closer look

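Angptl8 in FSH mouse 1 was at 182.9 CPM, far above the other 4 FSH livers, which had 32.7 to 72.0 CPM. The gap to the next liver was 0.738 of the range of the group, over the critical value of 0.71 for 5 samples. Of 18 groups of values checked in this way it was the only one, and chance alone marks about 5% of groups. The same liver had the highest Fgf21, at 11.9 CPM, and the lowest Angptl4, at 61.3 CPM.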

How the results depend on the processing

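Gdf15 kept its direction and its call in all 11 alternatives and all 11 fits without a liver (log2 fold change -2.65 to -1.97). Angptl4 lost its call under edgeR only (-0.95, adjusted p = 0.0620). Lepr lost its call without the filter on low genes (limma adjusted p = 0.0790), without the trend (0.0588), under edgeR (0.150) and when any of 8 livers was left out. Fst gained a call with a pseudocount of 1 CPM, a filter at 1 CPM, array weights, the replicate block, DESeq2, without FSH mouse 6 and without saline mouse 2. The log2 fold change of Angptl6 turned to -0.0134 with upper-quartile scaling, -0.0223 with median-of-ratios scaling, -0.0234 with edgeR and -0.0205 with DESeq2, and ran from -0.0474 to 0.0552 when livers were left out. The number of hepatokine genes called was 1 under edgeR, which called 1416 genes or 11.1% of all tested, and 2 to 4 when a liver was left out. The number past both thresholds was 2 with upper-quartile scaling, median-of-ratios scaling, array weights and the replicate block, and 1 to 3 when a liver was left out. Genes called over the whole table numbered 803 without FSH mouse 1 and up to 1659 with other livers left out, against 1350. The log2 ratio of Angptl8 to Angptl4 passed without saline mouse 3 (1.98, exact permutation p adjusted over the 2 ratios = 0.0159) and ran from 1.15 to 2.03 when a liver was left out. The cause of these moves was not tested. The replicate numbers do not pair the mice by the labels: of 5 same-numbered pairs, 2 deviated together with a correlation above 0.1 and 1 matched its own number best. With the replicate block, 1210 genes were called, Gdf15 was at -2.17 and Lepr at 0.78 (limma adjusted p = 0.00241 and 0.0130). Saline mouse 5 has no FSH mouse of its number, so in that fit it added nothing to the fold changes. The fit without saline mouse 5 and without a block gave the same fold changes (limma adjusted p = 0.0270 for Gdf15 and 0.0767 for Lepr). Depth limits Fst most, with 19 reads in saline mouse 4.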

Other observations

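Of 16 other secreted factors of the liver tested, 2 rose and 1 fell, against 6.19% and 4.41% of all genes tested. Nrg4, a growth factor of the EGF family, rose from 7.14 ± 0.850 CPM (SD, n = 6) with saline to 13.4 ± 0.974 CPM (SD, n = 5) with FSH, without overlap (log2 fold change 0.87, limma adjusted p = 0.000117), and Lect2 rose by less (0.40, adjusted p = 0.0364). Manf, a secreted protein of endoplasmic reticulum stress, fell from 114.8 ± 54.2 CPM (SD, n = 6) to 45.8 ± 13.0 CPM (SD, n = 5), also without overlap (-1.25, limma adjusted p = 0.00857).

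In the IGF system, 1 of 11 tested genes changed, a share near the 10.6% of all genes tested. Igfbp1, a binding protein raised in fasting, fell from 397.7 ± 181.4 CPM (SD, n = 6) to 134.9 ± 44.1 CPM (SD, n = 5) (log2 fold change -1.50, limma adjusted p = 0.00930), while Igf1 was at 608 and 626 CPM (0.06, adjusted p = 0.810).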
